A study of Homo sapiens with 3 samples.

Results

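Of the 26485 genes counted in HEC1B cells, 96 are nuclear genes named for the mitochondrial respiratory chain and ATP synthase. They were taken by name alone, with no use of their values. Included were symbols starting with NDUFA, NDUFB, NDUFC, NDUFS, NDUFV, UQCR or ATP5, symbols starting with COX and a digit from 4 to 8, and SDHA, SDHB, SDHC and SDHD. The rule left out 6 antisense or pseudogene-like names. By complex the set holds 47 genes for complex I, 4 for complex II, 9 for complex III, 17 for complex IV and 19 for complex V. Not all of them encode subunits: 81 do, 7 are NDUFAF assembly factors, 2 are readthrough genes, 2 are near-identical copies and 4 are other proteins (NDUFA4L2, COX7A2L, ATP5S and ATP5SL). The split by complex follows the start of each symbol. NDUFA4, named COXFA4 in RefSeq, was therefore counted in complex I, and ATP5SL, named DMAC2, in complex V. Members are separate genes measured in the same 3 libraries, so they are not replicates of a condition.

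HEC1B is an established human endometrial cancer cell line. The study depleted PRMT6, an arginine methyltransferase that modifies histones and other proteins, with siRNA. The siNC group holds 1 library of cells with the wild-type genotype label, and the PRMT6 knockdown group holds 2 libraries, 1 for siPRMT6-1 and 1 for siPRMT6-2, all taken at 48 h. Sample descriptions and table columns name these siRNAs si2 and si3, and each value given per siRNA rests on the pairing of titles and descriptions in the labels. Nothing in the labels tells whether the libraries came from separate cultures, and no siRNA has a replicate.

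The respiratory chain sits in the inner mitochondrial membrane. Complexes I and II pass electrons from NADH and succinate to ubiquinone, complex III passes them on to cytochrome c, and complex IV passes them to oxygen. Complexes I, III and IV pump protons, and complex V uses the resulting gradient to make ATP. Most subunits are encoded in the nucleus, translated in the cytosol and imported, and the remaining ones are encoded by mitochondrial DNA, whose genes were not analysed here. The transcription factors NRF1, GABPA (an ETS-family factor) and YY1 are known regulators of many nuclear respiratory genes.

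The libraries held 410916 counts in the siNC library, 381628 with siPRMT6-1 and 362080 with siPRMT6-2. A floor of 3 counts was set, which is 7.78, 8.09 and 9.09 CPM (counts scaled to TMM library sizes) respectively. The 95% exact Poisson interval of a count of 0 reaches 3.69 counts, or 9.56, 9.95 and 11.2 CPM. PRMT6 itself had 25, 4 and 7 counts, in the order siNC, siPRMT6-1 and siPRMT6-2 that is kept throughout. Its ratio to siNC was 0.167 with siPRMT6-1 (0.0421 to 0.482) and 0.327 with siPRMT6-2 (0.120 to 0.778). Of 12 epithelial markers, CDH1, KRT19 and ESRP1 were at 0 in all libraries and EPCAM had 5, 5 and 4 counts, while KRT8 had 1329, 681 and 770, KRT18 129, 85 and 95, and PAX8 158, 117 and 227. The interferon-stimulated list of 50 genes summed to 451, 529 and 4111 counts, a ratio of 10.7 (9.67 to 11.8) with siPRMT6-2. Ratios carry 95% exact binomial intervals, which cover counting error only. With 2 libraries in a ratio, what is compared is the libraries and not the treatments.

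Strand bears on how far a member's count can be read. The deposited table was counted with strand setting 1 from a stranded kit, and it is uncertain from which strand the counted reads came. Levels and ratios are therefore of the counts given to each name, and the part from the gene's own transcripts was not tested. Exon bases were shared with a gene on the other strand by 11 members in the table's own gene models. Adding the GENCODE release 29 gene models brought this to 28 of the 96 members, which held 48.0%, 49.9% and 46.4% of the members' counts in siNC, siPRMT6-1 and siPRMT6-2. Their median level per length in siNC was 26.0 CPM per kb, against 11.0 for the 68 members with no such exon. Summed ratios are given with and without the 11 members, of which none belongs to complex IV.

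The members' promoters held letters of the known regulators' motifs more often than the average promoter did. RefSeq promoters (GRCh38.p14, 250 bases before to 50 after each start) were found for 77 of the 96 members, with 94 promoters in all. GCGCANGCG, written here as NRF1-like, was in 25.5% of the members' promoters, against 7.52% of the 35116 promoters in the whole reference set and 9.64% of those of protein-coding genes. CCGGAAGT, ETS-like, was in 11.7%, against 4.14% and 5.33%. AAGATGGCG, YY1-like, was in 10.6%, against 1.75% and 2.41%. Both strands were searched, and the NRF1-like letters can match both strands of 1 site. These shares describe letters in a window, and a match is not a shown binding site.

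The 3 promoters printed here each show 1 of the patterns, in members whose counts are described in detail. SDHA (chr5:218070-218369, plus strand) holds 4 NRF1-like matches, at positions -166, -117, -68 and -19 from the start. UQCRQ (chr5:132866392-132866691, plus strand) holds an ETS-like match at position -54, and its window runs into the stretch it shares with GDF9. NDUFB8 (chr10:100529822-100530121, minus strand) holds a YY1-like match at position 17. Each runs 5′ to 3′ on the gene's strand, with the matches in capitals.
SDHA: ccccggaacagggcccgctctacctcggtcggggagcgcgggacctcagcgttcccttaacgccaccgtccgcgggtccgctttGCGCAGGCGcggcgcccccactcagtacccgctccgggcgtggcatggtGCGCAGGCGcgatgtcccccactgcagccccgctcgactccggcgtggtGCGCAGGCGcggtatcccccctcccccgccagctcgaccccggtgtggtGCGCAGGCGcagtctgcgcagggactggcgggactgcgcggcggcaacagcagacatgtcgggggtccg
UQCRQ: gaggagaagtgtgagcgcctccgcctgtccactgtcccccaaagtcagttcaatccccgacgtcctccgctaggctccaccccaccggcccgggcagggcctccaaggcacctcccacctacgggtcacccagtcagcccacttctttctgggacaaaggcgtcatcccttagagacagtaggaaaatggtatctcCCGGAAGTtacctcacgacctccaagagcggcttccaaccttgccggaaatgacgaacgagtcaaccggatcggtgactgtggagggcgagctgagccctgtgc
NDUFB8: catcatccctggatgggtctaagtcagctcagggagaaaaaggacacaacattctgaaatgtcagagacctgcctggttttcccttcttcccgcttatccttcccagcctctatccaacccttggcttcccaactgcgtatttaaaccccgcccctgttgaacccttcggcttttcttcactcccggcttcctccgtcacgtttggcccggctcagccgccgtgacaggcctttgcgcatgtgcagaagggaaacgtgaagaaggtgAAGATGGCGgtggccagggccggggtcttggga

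By complex, at least 1 of the 3 motifs was found for 17 of 41 complex I genes with a promoter, 3 of 3 of complex II, 6 of 7 of complex III, 4 of 14 of complex IV and 7 of 12 of complex V. Over all genes with a promoter the share was 14.6%, and over protein-coding genes 20.5%, against 28.6% for complex IV. The YY1-like matches of complexes I, II and III lay after the start, between 10 and 25 bases downstream. Those of ATP5J, the only complex V gene with any, lay at positions -207 and -57 in 2 overlapping promoter windows and are 1 and the same site.

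**Figure D1:**
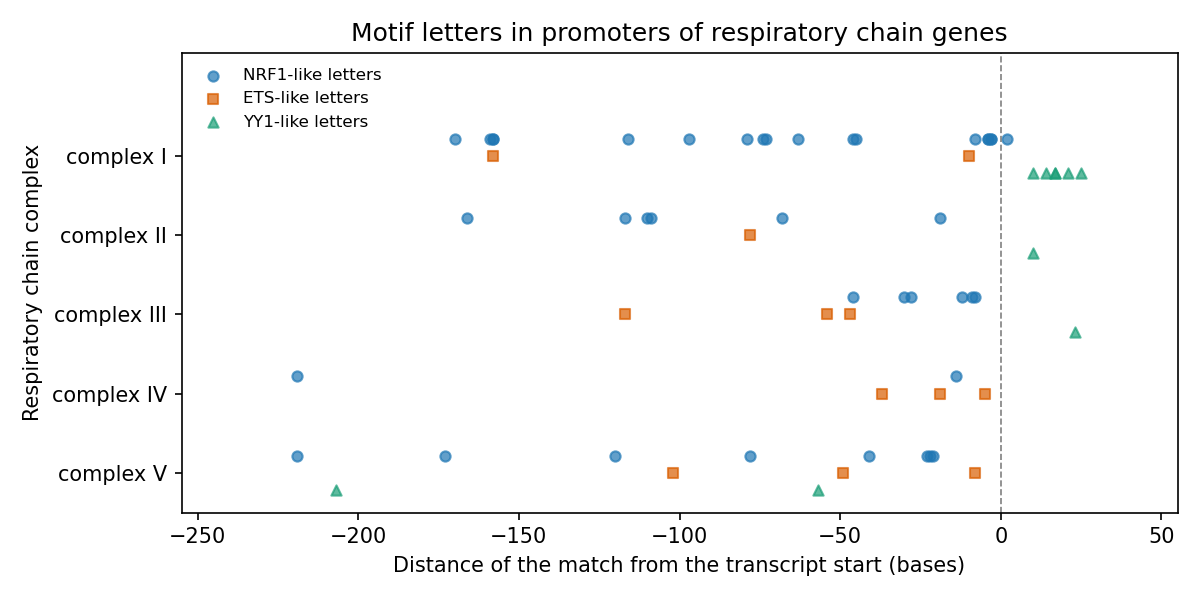
Positions of the motif letters in the members' promoters. The x axis gives the distance of each match from the transcript start in bases, the rows are complexes and the symbols are the 3 motifs; YY1-like matches of complexes I, II and III sit 10 to 25 bases after the start, while most NRF1-like matches sit before it.

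The members' counts were low, but per length they stood at middle to high rank. At least 1 count was found for 91 of the 96 members, the median member had 7.5 counts in siNC, and 21 members had 3 counts or fewer in every library. Per kilobase of exon, the median rank by mean CPM of these 91 members was the 75.5th percentile of the 16244 genes detected. Over all members, those at 0 included, the median level was 50.9 CPM per kb in complex V, above the other complexes, which lay close together at 12.3 in complex I, 13.1 in complex II, 13.5 in complex III and 11.3 in complex IV. The genes with the most signal per length, as means over the 3 libraries, were NDUFB9 (441 CPM per kb), COX8A (326), ATP5J (297), COX6B1 (221), ATP5B (212) and ATP5E (191). Counts for subunits of 1 complex differed widely on this scale. ATP5B and ATP5A1, subunits of the ATP synthase catalytic head, stood at 212 and 61.9 CPM per kb. The central stalk subunit ATP5C1 stood at 4.62, on 3, 3 and 0 counts. Whether these gaps hold for the transcripts was not tested.

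Of the 6 tissue-restricted isoforms, 4 were at 0. COX4I2, COX6A2, COX7B2 and COX8C, forms of complex IV subunits known from lung, muscle or testis, had 0 counts in all 3 libraries. COX6B2, a testis form, had 0, 2 and 0 counts, and COX7A1, a muscle form, had 7, 1 and 2. Their ubiquitous counterparts were not all higher. COX4I1, COX6A1, COX6B1 and COX8A were counted in every library, but COX7A2 had 2, 2 and 2 counts, fewer than COX7A1 in siNC, and COX7B had 0, 0 and 1. The COX7A2 and COX7B counts lie under the floor of 3 counts in every library, so they do not rank the isoforms.

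**Figure D2:**
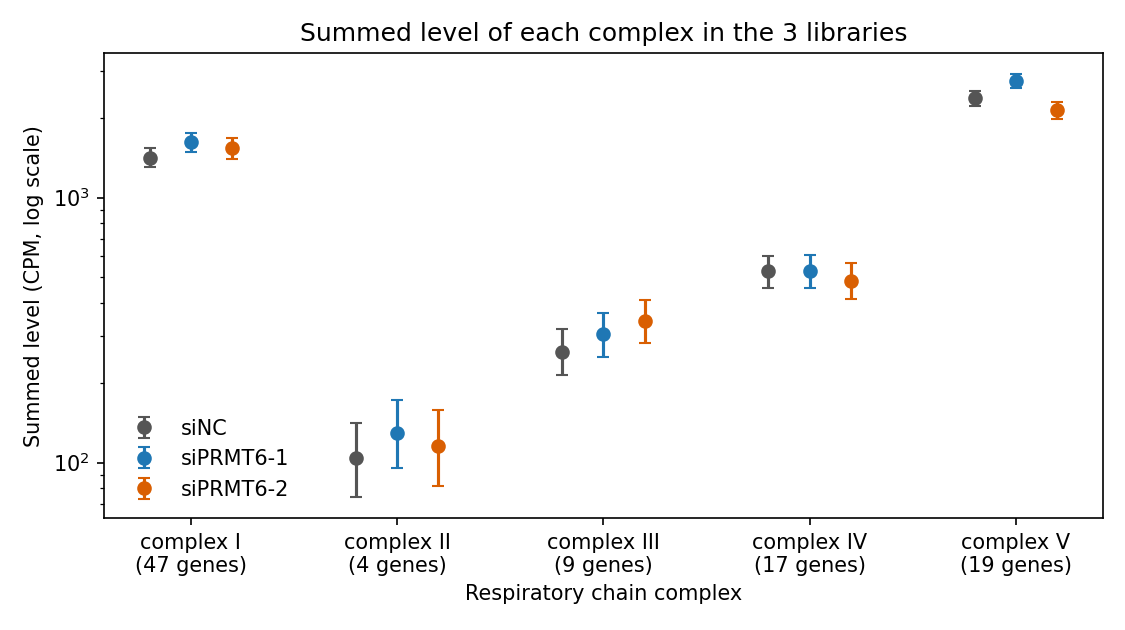
Summed CPM of the members of each complex in siNC, siPRMT6-1 and siPRMT6-2. Points are the sums on a log axis and the error bars are 95% exact Poisson intervals, counting error only. With all members, complex V runs from 2133 to 2746 CPM and is the highest complex in every library. Without members that overlap an opposite-strand gene (not drawn), complex I is above complex V in every library. The sums are then 1298, 1478 and 1415 CPM for complex I, against 1055, 1230 and 1033 for complex V. With subunits only (not drawn), complex I sums to 1288, 1502 and 1385 CPM and complex V to 1599, 1974 and 1406.

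Summed over all members, siPRMT6-1 stood above siNC and siPRMT6-2 did not. The sums were 1806 counts with siNC, 1973 with siPRMT6-1 and 1521 with siPRMT6-2, or 4681, 5322 and 4608 CPM. The ratio to siNC was 1.14 (interval 1.07 to 1.21) with siPRMT6-1 and 0.984 (0.919 to 1.05) with siPRMT6-2. Without the 11 members that overlap an opposite-strand gene, the ratios were 1.13 (1.04 to 1.22) and 1.03 (0.951 to 1.12). Without ATP5J alone, an alternative chosen after seeing the data, they were 1.11 (1.04 to 1.19) and 1.02 (0.947 to 1.09). For the 68 members with no opposite-strand exon, also chosen afterwards, the ratios were 1.09 (1.0004 to 1.20) and 1.01 (0.922 to 1.11). With TMM computed without the interferon-stimulated list the siPRMT6-2 ratio was 0.985. Both comparisons share the single siNC library, so they are given side by side only. In bulk RNA, fewer cells and less RNA per cell cannot be told apart.

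**Figure D3:**
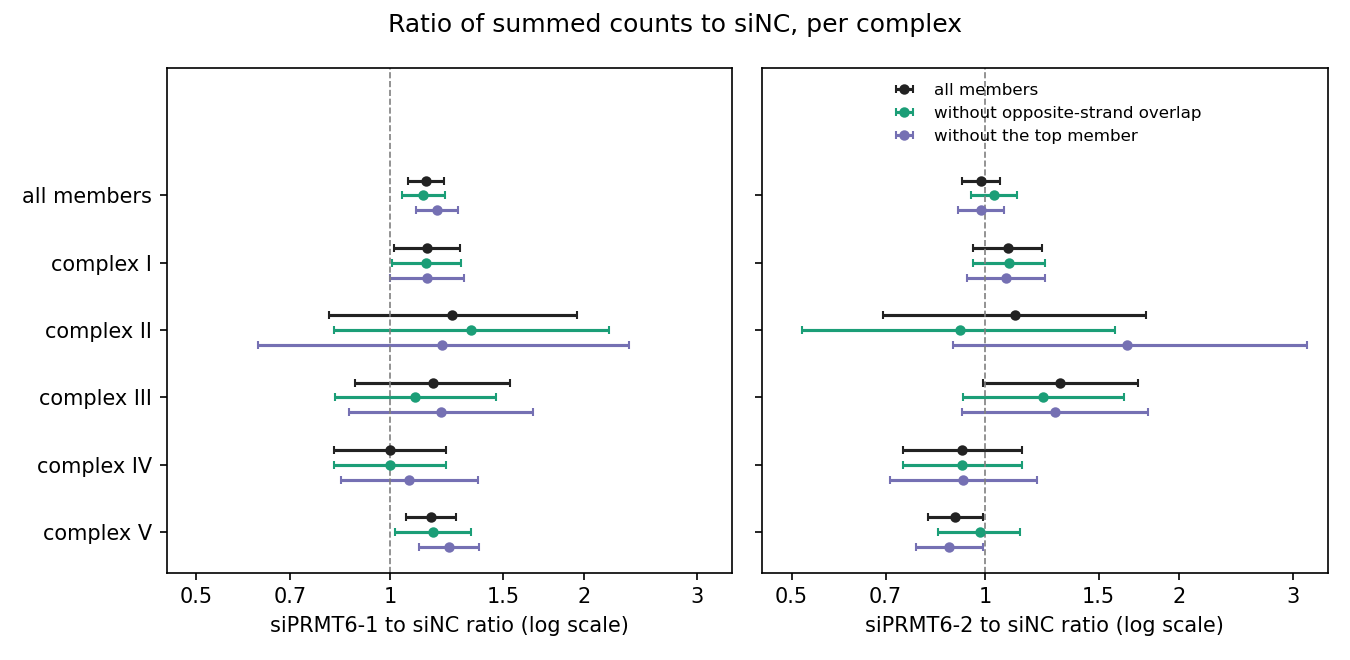
Ratio of summed CPM to siNC for each complex, on a log axis, with siPRMT6-1 on the left and siPRMT6-2 on the right. Points are ratios and bars are 95% exact binomial intervals, for all members, for members without opposite-strand overlap and without the member with the most counts; with siPRMT6-2 the complex V interval reaches 1 only when the overlapping members are left out.

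Single members were then set against the background of all genes. A filter on low counts was passed by 47 members, of which 5 (SDHC, ATP5L, ATP5G3, NDUFA6 and NDUFA8) reached the filter's level in 1 library alone. A further limit is that 9 of the 47, UQCRQ and ATP5L among them, reached it in knockdown libraries alone, where they were high. Counts and medians over the 47 are therefore descriptions and do not stand for all members. With siPRMT6-1, the interval of the ratio lay above 1 for 4 of the 47 (8.51%; background 5.89% of 6803 genes), namely NDUFB8, ATP5L, ATP5B and ATP5J, and below 1 for 0 (background 7.14%). With siPRMT6-2 it lay above 1 for 0 (background 9.73%) and below 1 for 1, ATP5J (2.13%; background 8.82%). A log2 CPM difference of at least 1, a fold of 2, was reached upward by NDUFB8, ATP5L and UQCRQ with siPRMT6-1 (3 of 47, 6.38%; background 4.89%) and by UQCRQ with siPRMT6-2 (background 8.16%). No member that passed the filter fell by that much with either siRNA (background 4.38% and 5.38%). These shares lay on both sides of the background, and each rests on 0 to 4 genes.

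The median log2 CPM difference of the 47 members from siNC was 0.17 with siPRMT6-1, where all 6803 genes had 0.01. With siPRMT6-2 both medians were near 0, at 0.02 for the members and 0.01 for all genes. With siPRMT6-1, 30 members were above siNC and 17 below, and the values ran from -0.84 to 1.41. With siPRMT6-2, 24 were above and 23 below, from -0.83 to 1.29.

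Across both siRNAs, the edgeR quasi-likelihood test of the 2 knockdown libraries against siNC called 0 of 6803 genes (0%) at an adjusted p under 0.05, and 0 members. At an unadjusted p under 0.05 it had 186 genes (2.73%), 138 higher and 48 lower, and again 0 members. DESeq2 called 0 genes and had 13 at an unadjusted p under 0.05, none of them members. The lowest edgeR p of a member was 0.106, for UQCRQ (adjusted p = 1). PRMT6 itself was not called either, with an edgeR log2 fold change of -2.01 and an unadjusted p of 0.0108. Of the interferon-stimulated list, 0 genes were called. With this design, 0 calls among members therefore do not show that the members were unchanged.

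**Figure D4:**
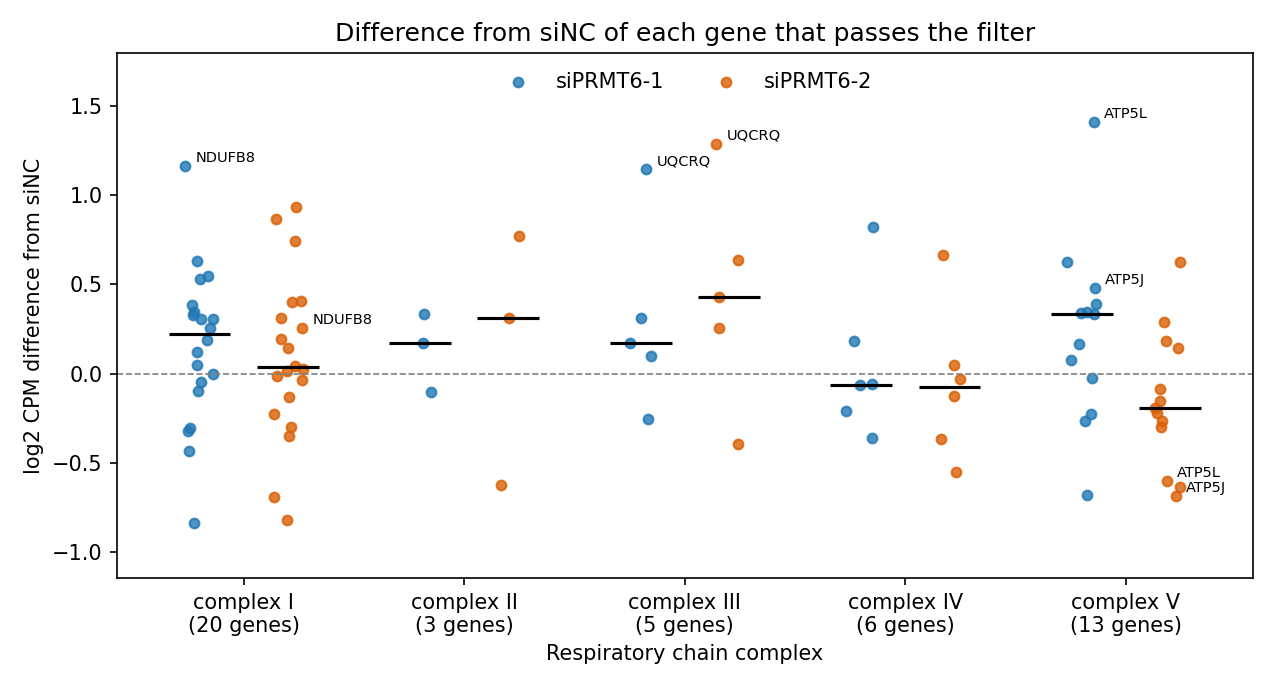
Log2 CPM difference from siNC of each of the 47 members that passed the filter, by complex. Blue points are siPRMT6-1, orange points siPRMT6-2 and the black lines their medians; complex V has a median of 0.34 with siPRMT6-1 and -0.19 with siPRMT6-2, and ATP5J lies above 0 with the first and below it with the second.

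Complex I, the NADH dehydrogenase, held 47 of the members and summed to 546 counts in the siNC library, 599 with siPRMT6-1 and 506 with siPRMT6-2. The ratio to siNC was 1.14 (1.01 to 1.28) with siPRMT6-1 and 1.08 (0.958 to 1.22) with siPRMT6-2. Without its 6 overlapping members it was 1.14 (1.01 to 1.29) and 1.09 (0.959 to 1.24). With only the members that have no opposite-strand exon in the table or in GENCODE, a setting chosen after seeing the data, the siPRMT6-1 interval held 1 (ratio 1.09, 0.917 to 1.29). Medians over its 20 members that passed the filter were 0.22 and 0.04 on the log2 scale.

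NDUFB8, a subunit of the membrane arm (GRCh38 chromosome 10, 100523729 to 100529923, minus strand), had 29 counts in the siNC library, 65 with siPRMT6-1 and 30 with siPRMT6-2. The siPRMT6-1 library alone was high. Its ratio to siNC was 2.33 (1.48 to 3.75) with siPRMT6-1 and 1.21 (0.701 to 2.09) with siPRMT6-2. In GENCODE its exons share 17 bases with HIF1AN on the other strand.

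The other abundant complex I genes had intervals that held 1 with both siRNAs. NDUFB9, also of the membrane arm, had 113, 124 and 107 counts, with ratios of 1.14 (0.878 to 1.49) and 1.11 (0.842 to 1.45). In GENCODE the exons of NDUFB9 share 186 bases with TATDN1 on the other strand. NDUFS8, a subunit that carries iron-sulfur clusters, had 52, 40 and 45 counts and ratios of 0.801 (0.516 to 1.23) and 1.01 (0.663 to 1.54). The accessory subunits NDUFA10 and NDUFA11 had 26, 37 and 23 counts and 25, 24 and 27 counts. Of the NADH-binding flavoprotein NDUFV1, 25, 32 and 18 counts were found.

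The 7 complex I assembly factors among the members, which help to build the complex but are not part of it, summed to 36, 27 and 30 counts, with ratios of 0.781 (0.456 to 1.32) and 0.974 (0.580 to 1.63). NDUFAF3 held 24, 12 and 20 of these.

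Complex II, the succinate dehydrogenase, was counted in few reads. Its 4 genes summed to 40, 48 and 38 counts, with ratios of 1.25 (0.804 to 1.95) and 1.11 (0.693 to 1.78), so a difference was not detectable here. Without SDHC, which overlaps CFAP126, they were 1.33 (0.819 to 2.19) and 0.913 (0.519 to 1.59), so the siPRMT6-2 value turned below 1. SDHA, the flavoprotein whose promoter has 4 NRF1-like matches, had 21, 26 and 11 counts. Its ratios to siNC were 1.29 (0.697 to 2.41) and 0.612 (0.267 to 1.33). SDHB, the iron-sulfur subunit, had 2, 5 and 4 counts. The membrane anchors SDHC and SDHD had 8, 7 and 13 counts and 9, 10 and 10 counts. None of the 4 had an interval that excluded 1.

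Complex III, the cytochrome bc1 complex, summed to 101 counts in siNC and 113 in each knockdown library. The ratios were 1.16 (0.882 to 1.54) with siPRMT6-1 and 1.31 (0.991 to 1.73) with siPRMT6-2. Without UQCRQ, its overlapping member, they were 1.09 (0.821 to 1.46) and 1.23 (0.922 to 1.64). UQCRH, the hinge protein, had 29, 30 and 34 counts, and UQCRHL, a near-identical copy with which it can share reads, had 1, 7 and 4. The core proteins UQCRC1 and UQCRC2 had 29, 23 and 30 counts and 9, 10 and 13 counts. UQCRB, a ubiquinone-binding protein, had 13, 16 and 8. The intervals of these 5 genes all held 1.

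UQCRQ, a small complex III subunit (GRCh38 chromosome 5, 132866627 to 132868844, plus strand), reached a fold of 2 with each siRNA, but it passed the filter only through the knockdown libraries. It had 4 counts in the siNC library, 11 with siPRMT6-1 and 11 with siPRMT6-2. The siNC library was the lowest and both knockdown libraries were alike. Its ratios were 2.86 (0.848 to 12.3) and 3.21 (0.953 to 13.8), so both intervals held 1. The edgeR log2 fold change was 1.57 (SE 0.909, adjusted p = 1). GDF9, a growth factor gene known from oocytes that shares 77 exon bases with it on the other strand, had 746, 710 and 644 counts. The part of the GDF9 reads in the UQCRQ counts, and of the UQCRQ reads in the GDF9 counts, was not tested.

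Complex IV, cytochrome c oxidase, summed to 203, 195 and 160 counts and was the complex closest to siNC with siPRMT6-1, at a ratio of 1.00 (0.817 to 1.22). With siPRMT6-2 the ratio was 0.921 (0.744 to 1.14). No complex IV member overlaps an opposite-strand gene in the table. COX8A, a small structural subunit, had 69, 57 and 54 counts, and COX6B1, which faces the intermembrane space, had 52, 57 and 34. COX5A and COX4I1, subunits with known regulatory roles, had 25, 23 and 14 counts and 18, 13 and 16. COX5B had 12, 22 and 10 counts, with ratios of 1.91 (0.904 to 4.23) and 0.974 (0.377 to 2.46). None of the 6 that passed the filter had an interval that excluded 1.

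Complex V, the ATP synthase, was the only complex whose interval between the siRNAs excluded 1. It summed to 916 counts in the siNC library, 1018 with siPRMT6-1 and 704 with siPRMT6-2. The ratio to siNC was 1.16 (1.06 to 1.27) with siPRMT6-1 and 0.898 (0.813 to 0.992) with siPRMT6-2. Set directly against each other, siPRMT6-2 stood at 0.777 of siPRMT6-1 (0.705 to 0.856). Leaving out the 3 members with an opposite-strand overlap took the siPRMT6-2 ratio to siNC to 0.979 (0.846 to 1.13) and the ratio between the siRNAs to 0.840 (0.728 to 0.969). Leaving out ATP5J alone took the siPRMT6-2 ratio to 0.953 (0.856 to 1.06), and the interval then held 1. The siPRMT6-1 ratio was 1.17 (1.02 to 1.34) without the 3 members, and 1.12 (0.972 to 1.30) without all members that have an opposite-strand exon in the table or in GENCODE.

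ATP5J, a subunit of the peripheral stalk (GRCh38 chromosome 21, 25724480 to 25735654, minus strand), had 148 counts in the siNC library, 199 with siPRMT6-1 and 78 with siPRMT6-2. It was the only member that passed the filter with intervals excluding 1 for both siRNAs, and they did so in opposite directions. The ratios were 1.40 (1.13 to 1.74) and 0.616 (0.462 to 0.816), and siPRMT6-2 stood at 0.440 of siPRMT6-1 (0.334 to 0.575). The edgeR test of both siRNAs against siNC gave a log2 fold change of 0.01 (SE 0.488, adjusted p = 1). ATP5J shares 632 exon bases, 48.8% of its exonic length, with GABPA on the other strand, which had 91, 95 and 66 counts. GABPA is itself one of the ETS-family regulators named above.

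ATP5B, the catalytic beta subunit (GRCh38 chromosome 12, 56638175 to 56646068, minus strand), has no opposite-strand exon in the table or in GENCODE. It had 132, 167 and 125 counts, highest in siPRMT6-1. The ratios were 1.32 (1.04 to 1.67) and 1.11 (0.860 to 1.42). ATP5L, subunit g of the membrane part, had 10, 29 and 5 counts, with ratios of 3.02 (1.43 to 6.94) and 0.584 (0.157 to 1.88). It was high in siPRMT6-1 alone. In GENCODE its exons share 143 bases with a gene on the other strand.

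The remaining abundant complex V genes lay within counting error of siNC. ATP5J2-PTCD1, a readthrough gene whose counts can be shared with ATP5J2 and PTCD1, had the most counts of any member, 279, 263 and 225, with ratios of 0.981 (0.826 to 1.17) and 0.943 (0.787 to 1.13). ATP5J2 itself had 4, 4 and 3 counts, so few of the readthrough gene's counts were also counted for ATP5J2. Of the 5538 exonic bases of the readthrough gene, 181 are shared with ATP5J2. The part of its counts from PTCD1, which is not a member, was not tested. Without the readthrough gene, complex V kept 69.5%, 74.2% and 68.0% of its counts. The ratios to siNC were then 1.23 (1.11 to 1.37) and 0.879 (0.779 to 0.991). The readthrough gene shares 393 exon bases with BUD31 on the other strand, 919 in GENCODE, and BUD31 had 46, 40 and 36 counts. ATP5F1, subunit b of the peripheral stalk, had 82, 100 and 60 counts, and in GENCODE its exons share 256 bases with WDR77 on the other strand. ATP5D, the central stalk delta subunit, had 61, 62 and 42. The c-ring genes ATP5G1 and ATP5G2 had 23, 25 and 12 counts and 38, 30 and 29 counts, and ATP5E, the epsilon subunit, had 25, 31 and 34.

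**Figure D5:**
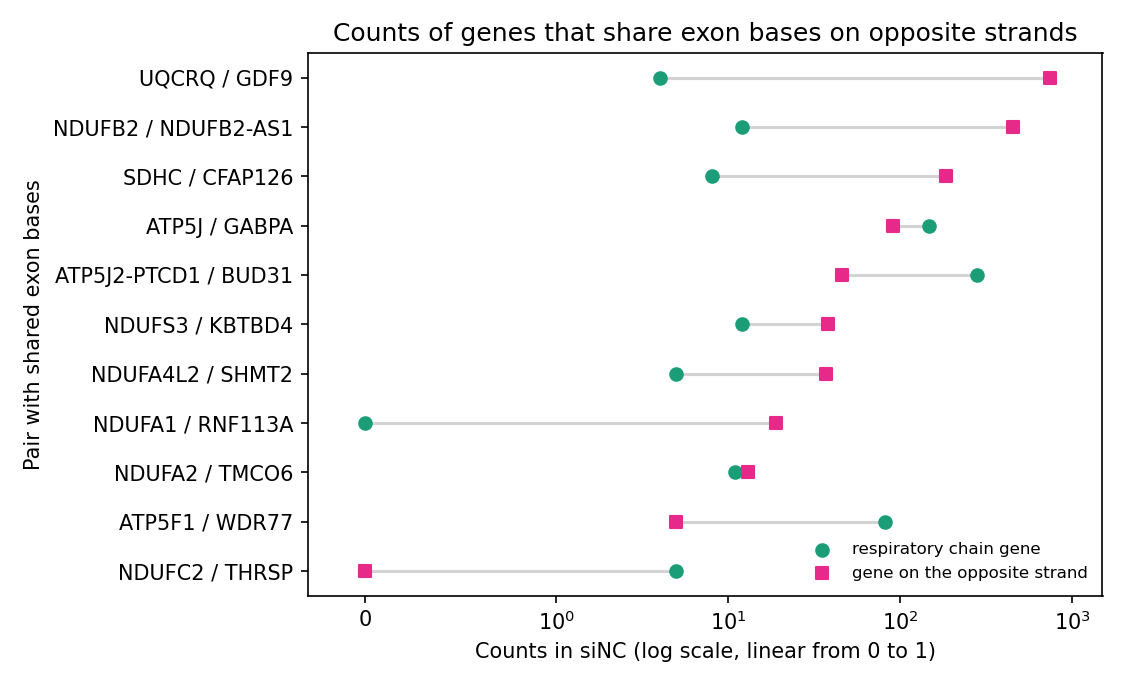
Counts in the siNC library of the 11 members that overlap an opposite-strand gene in the table (circles) and of that gene (squares), on a log axis that is linear from 0 to 1. The partner had more counts in 7 of the pairs and the member in 4.

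In 7 of the 11 overlapping pairs the partner had more counts than the member in siNC. NDUFB2, a complex I subunit, had 12, 19 and 12 counts while NDUFB2-AS1 had 452, 355 and 306, with ratios to siNC of 0.817 (0.709 to 0.941) and 0.791 (0.682 to 0.917). SDHC had 8, 7 and 13 counts while CFAP126, a cilium gene that shares 15 bases with it, had 184, 212 and 82. The CFAP126 ratio was 0.521 (0.397 to 0.679) with siPRMT6-2, and the SDHC ratio was 1.90 (0.730 to 5.29). NDUFA2 had 11, 1 and 2 counts and TMCO6 13, 6 and 3. The part of the partners' reads in the members' counts, and of the members' reads in the partners' counts, was not tested.

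Several gene lists that belong with the respiratory chain were summed over all their genes. Opposite-strand overlaps were not left out of these sums, and the mitochondrial biogenesis list holds GABPA, which overlaps ATP5J. Assembly factors outside the naming rule (45 genes, 15 past the filter, such as SURF1 and SCO1, which help to build complex IV) summed to 881, 971 and 637 counts, with ratios of 1.15 (1.05 to 1.26) and 0.845 (0.762 to 0.937). Tricarboxylic acid cycle genes (18, 14 past the filter) summed to 756, 683 and 566, with ratios of 0.940 (0.847 to 1.04) and 0.875 (0.783 to 0.977). Genes of mitochondrial biogenesis and mitochondrial DNA expression (20, 10 past the filter) had 0.849 (0.761 to 0.947) and 0.892 (0.798 to 0.996). Ribosomal proteins of mitochondria (77, 34 past the filter) had 0.956 (0.878 to 1.04) and 0.964 (0.883 to 1.05).

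Mitochondrial import genes (27, 14 past the filter) had ratios of 0.997 (0.875 to 1.14) and 0.936 (0.816 to 1.07). Electron carriers and ubiquinone synthesis genes (16, 4 past the filter) had 0.791 (0.602 to 1.04) and 0.961 (0.736 to 1.25). Glycolysis genes (20, 18 past the filter), which make ATP outside mitochondria, had 0.862 (0.814 to 0.912) and 0.983 (0.929 to 1.04). The edgeR test called 0 genes in each of these 7 lists. At an unadjusted p under 0.05 the count was also 0 in each. DESeq2 called 0 genes over the whole table.

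Markers of other cell types were low in most lists. Of 12 leukocyte markers, 7 were at 0 in all libraries, PTPRC, CD3E and CD14 among them, and the list summed to 29, 30 and 91 counts, a ratio of 3.67 (2.39 to 5.78) with siPRMT6-2. Most of these were CD68, with 17, 19 and 56 counts, and CD74, with 4, 3 and 26. Of 10 fibroblast markers, 5 were at 0, COL1A2 and COL3A1 among them, and the sum was 540, 368 and 377, of which COL1A1 held 515, 354 and 370. Of 8 endothelial markers 4 were at 0 (sum 27, 27 and 15), and of 9 muscle genes 6 were at 0 (sum 14, 23 and 16). The epithelial list summed to 1640, 900 and 1116. The part of these lists in the members' values was not tested.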

How the data were processed

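Total RNA of 3 HEC1B libraries was measured by stranded RNA-seq from 10 ng of RNA, per the labels' protocols. The authors deposited raw counts for each gene, as whole numbers without scaling. The submitters' processing notes name STAR 2.7.8a, featureCounts 2.0.10 and the hg38 build. The header of the table instead gives featureCounts 2.0.1, with strand setting 1, and with reads in overlapping genes added to every one of them.

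The counts were scaled with TMM in edgeR 4.0.16 (R 4.3.3). All 3 libraries entered a two-sided quasi-likelihood test over the 6803 genes kept by filterByExpr (minimum count 10, minimum total 15), with Benjamini-Hochberg adjustment. The fit had 1 residual degree of freedom, from the gap between the siRNAs, and 12.8 prior degrees of freedom shared over genes, and the siNC library was assumed to vary like the others. DESeq2 1.42.0 was an alternative. Ratios of 2 libraries carry exact binomial intervals. Log2 differences use a prior count of 2. The scripts were tested on simulated data. Members named are the 5 with the most counts in complexes I, III, IV and V, all 4 of complex II, those with a fold of 2 with both siRNAs and those whose interval excluded 1. NDUFV1, NDUFAF3, ATP5A1, ATP5C1, ATP5E, ATP5G1, ATP5G2 and the isoform and overlap genes were added after their values were seen. Members and lists were chosen with earlier results of these data known.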

Additional observations from a re-analysis of the deposited data

Results flagged for a closer look

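The libraries of the 2 siRNAs differed from each other in the sum of all members and in complex V. Over all members, siPRMT6-2 stood at 0.866 of siPRMT6-1 (interval 0.809 to 0.926), with ratios to siNC of 1.14 and 0.984. The second lies within counting error of siNC and was 1.03 without overlapping members, 1.02 without ATP5J and 1.01 without any opposite-strand exon, the same side as siPRMT6-1. For complex V it stood at 0.777 (0.705 to 0.856), with ratios to siNC of 1.16 and 0.898. The second was 0.979 (0.846 to 1.13) without overlapping members and 0.953 (0.856 to 1.06) without ATP5J. Each siRNA has 1 library, so the difference was not tested and the intervals cover counting error only.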

How the results depend on the processing

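With edgeR's older quasi-likelihood estimate, 32 genes were called in place of 0, all higher and none a member; the cause was not tested. DESeq2, no filter and leaving out overlapping genes left the count at 0; with no filter, 3 of 91 members had an unadjusted p under 0.05. With both siRNAs pooled, the ratio to siNC was 1.07 for all members and 1.03 for complex V. Leaving out siPRMT6-1 turned both below 1, to 0.984 and 0.898, and leaving out siPRMT6-2 gave 1.14 and 1.16. Without members that overlap an opposite-strand gene, 0 members had an interval below 1 with siPRMT6-2 and 0 had a fold of 2 upward, since ATP5J and UQCRQ were left out. The complex II ratio with siPRMT6-2 went from 1.11 to 0.913, and that of all members from 0.984 to 1.03. That second count was also 0 among members with at least 30 counts over the 3 libraries, where UQCRQ is left out, and 2 with a prior count of 0.5. The other 167 values for the comparisons moved by less than their counting interval, or stayed within the limits set for counts and medians, under the settings tried, which were other library scalings, subunits alone, and sums without the top member, without ATP5J or without any opposite-strand exon. The last 2 settings were chosen after seeing the data. Under both, as without the overlapping members, the complex V interval with siPRMT6-2 held 1. Without any opposite-strand exon, the siPRMT6-1 intervals of complex I (0.917 to 1.29) and complex V (0.972 to 1.30) also held 1. Without SDHA, its top member, the complex II ratio with siPRMT6-2 was 1.66 (0.890 to 3.16). No paired analysis was possible because the siNC library carries no replicate number that it shares with 2 knockdown libraries. Leaving out a knockdown library leaves edgeR no residual degree of freedom, so that test was not run. Depth limits single members: the median member had 7.5 counts in siNC.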

Other observations

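A few members that did not pass the filter on low counts had values a reader may want to see, and all were chosen after their values were seen. NDUFA2, an accessory subunit of complex I, had 11, 1 and 2 counts in the order siNC, siPRMT6-1, siPRMT6-2, with ratio intervals of 0.0022 to 0.651 and 0.0229 to 0.974. NDUFB5, also of complex I, had 7, 9 and 0 counts, and the 0 allows up to 9.09 CPM. ATP5O, which joins the peripheral stalk to the catalytic head, had 1, 4 and 7 counts, and its siPRMT6-2 ratio was 8.18 with an interval of 1.05 to 369. NDUFA1, another complex I subunit, had 0, 5 and 4 counts.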
